A study of Populus ussuriensis with 12 samples.

Results

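The response of wild-type roots of Populus ussuriensis, a poplar, to low nitrogen (N) was described from 6 RNA-seq libraries, 3 from plants on low-N medium and 3 from plants on medium with normal N. A gene ID was included where it reached at least 1 FPKM (mapped fragments scaled by gene length and by library size) in at least 3 of these 6 libraries, which held for 24013 of the 34699 IDs in the table (69.2%). Just inside this limit, 282 IDs with a third-highest value of 1 to 1.1 FPKM had medians of 0.932 FPKM (normal N) and 1.09 FPKM (low N), and just outside it, 275 IDs with 0.9 to 1 FPKM had medians of 0.804 and 0.990. The plants were propagated clonally in vitro on woody plant medium, started from the uppermost internode, grown for 6 days and then kept for 3 weeks at either N supply. Normal-N wild type and low-N wild type carried no transgene. A further 6 libraries came from plants overexpressing PuHox52, with 3 at each N supply, and entered the fit as groups of their own. The sources used here state neither the amount of N in either medium nor whether a library came from 1 plant or from several. Roots are a mixture of cell types, so fewer cells of a type and less RNA per cell cannot be told apart in any of the values.

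Roots take up N mainly as nitrate and ammonium, which membrane carriers import and which the enzymes of N assimilation turn into amino acids. When N runs short, plants are known to change the expression of carriers and assimilation enzymes, to remobilise stored N and to alter the growth of roots. The table pairs its Potri IDs with no gene names, so results are given by ID and by groups of IDs, and the root identity of the samples could not be checked against marker genes. In a Potri ID, the digits after the dot name the chromosome and the number after the letter G counts along it.

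The response involved many IDs, and most of the changes were small. At low N, 2508 IDs rose and 1606 fell, by the rule of a Benjamini-Hochberg adjusted p under 0.05 in limma together with a difference of 1 or more in log2(FPKM + 1). These were 10.4% and 6.69% of the tested IDs. By the adjusted p alone, 11040 IDs were higher (46.0%) and 5613 were lower (23.4%), so that 75.3% of the IDs with an adjusted p under 0.05 changed by less than 1. In the text below, an ID is said to have risen or fallen only where it met both conditions. The scale understates the change of weakly expressed IDs.

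Which direction was the larger depended on how the libraries were scaled. The median ID was 0.19 higher at low N on the log2 scale with the deposited values. Rises made up 61.0% of the changes as deposited. Scaling by the median of ratios gave 1725 rises and 2162 falls (44.4% rises), and quantile normalization gave 1839 rises and 2148 falls (46.1% rises). Changes below are therefore to be read against that median of 0.19.

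The libraries of a group lay close together. Pearson correlations of log2 values were 0.992 to 0.995 among the normal-N libraries and 0.986 to 0.989 among the low-N libraries, against 0.854 to 0.860 between the groups. The number of IDs with 1 FPKM or more was 22913 ± 53.2 in normal-N and 23588 ± 67.3 in low-N libraries (SD, n = 3). Depth, read from the steps in which the lowest FPKM values moved, was 1 to 1.09 in the normal-N libraries and 0.469 to 0.502 in the low-N libraries relative to normal-N replicate 1, a 2.16-fold difference of the means. The absolute depth is unknown. The labels name 2 sequencing companies without linking them to libraries, so a difference in sequencing that coincided with the N supply cannot be told apart from it. The median SD of an ID within a group was 0.0968 at normal N and 0.106 at low N on the log2 scale, but 466 IDs had an SD over 0.5 at low N and 90 at normal N.

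With the deposited values, rises and falls of 2 or more were similar in number, but the very largest changes were more often rises. On the log2 scale, 468 IDs rose and 443 fell by 2 or more, and 139 rose and 125 fell by 3 or more. At the far end, 58 IDs rose and 40 fell by at least 4, and 23 rose and 11 fell by at least 5. The risen IDs went from a median of 3.42 FPKM under normal N to 12.3 FPKM under low N, and the fallen IDs from 18.2 to 4.35 FPKM. The tested IDs as a whole had medians of 8.77 and 10.3 FPKM. For 7915 IDs (33.0%), the 95% confidence interval of the change stayed within 0.5 of 0 on both sides.

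**Figure D1:**
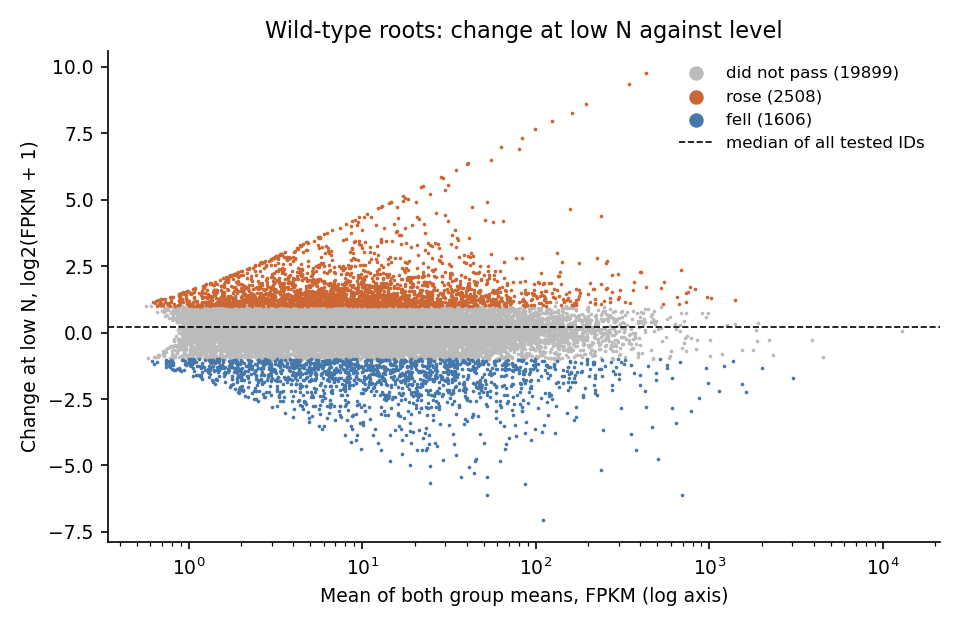
Change at low N on the log2(FPKM + 1) scale against the mean of both group means in FPKM (log axis), with 1 point per tested ID. The 2508 risen and 1606 fallen IDs are coloured, and the dashed line is the median of all tested IDs at 0.19. The edges of the cloud at the upper and lower left are IDs near 0 FPKM in one group.

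The shares of the transcript pool held by the risen and the fallen IDs moved in opposite directions. Both sets were chosen on the same values, which fixes these directions, so the shares are a description. The risen IDs took 4.78% to 4.81% of the summed FPKM in the normal-N libraries and 14.9% to 15.2% in the low-N libraries. The fallen IDs took 17.9% to 18.0% at normal N and 4.85% to 5.07% at low N. Falls were most frequent among the IDs of at least 100 FPKM, and their share did not climb steadily with level. Among the 1016 IDs with a mean of at least 100 FPKM over both groups, 136 fell (13.4%) and 111 rose (10.9%). Among the 10208 IDs with 5 to 20 FPKM, where falls were least frequent, 535 fell (5.24%) and 1015 rose (9.94%). The share that fell was 7.36% under 2 FPKM, 6.3% at 2 to 5 FPKM and 8.10% at 20 to 100 FPKM. Of the 100 IDs with the highest mean at normal N, 41 fell and 4 rose, and 54 were also among the 100 highest at low N. Choosing IDs for a high level at normal N favours falls, and of the 100 highest at low N, 7 fell and 27 rose. The 10 highest IDs of each library held 6.67% to 7.22% of the summed FPKM at normal N and 5.08% to 5.38% at low N, so the pool was somewhat less concentrated at low N.

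The ID with the highest mean over both groups, Potri.013G131200, was also the highest within each group. It stood at 12046, 14089 and 11687 FPKM in the normal-N libraries and at 12293, 13552 and 13567 FPKM in the low-N libraries. The groups overlapped, and its change of 0.06 ± 0.0959 (SE) did not pass (limma adjusted p = 0.574). It was singled out for its level after its values were seen.

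The 2 largest rises started at or near 0, and of the 2 largest falls, one ended near 0 and the other above the median level of the tested IDs. Potri.007G062282 was listed at 0 in all 3 normal-N libraries and at 939, 856 and 802 FPKM in the low-N libraries, where it ranked at 32 among the tested IDs by mean level. Its change on the log2(FPKM + 1) scale was 9.76 ± 0.0771 (SE; limma adjusted p = 3.59e-17). The values of Potri.007G062061 in the normal-N libraries were 0, 0 and 0.141 FPKM. In the low-N libraries they were 871, 605 and 583 FPKM, a change of 9.34 ± 0.136 (SE; limma adjusted p = 7.26e-14). No fold is given for either, since the normal-N values are at or near 0 and the files hold no counts. In the fit, each SE pools the spread of an ID over all 4 groups. For both IDs the normal-N groups of both genotypes were at or near 0 and added little or no spread. Neither the SE nor the p therefore measures the spread among the low-N libraries alone.

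Potri.010G196400 fell from 220, 226 and 208 FPKM at normal N to 0.695, 0.217 and 1.17 FPKM at low N. The mean was 314-fold lower, and 478-fold without low-N replicate 3, so the size of the fold rests on low-N values near 0. It had a change of -7.05 ± 0.268 (SE; limma adjusted p = 4.85e-09), and every low-N library lay far below every normal-N library. The tested ID just before it in the order of IDs also fell, from 19.8, 25.2 and 23.6 FPKM to 1.19, 2.78 and 3.93 FPKM, a log2 change of -2.79 (limma adjusted p = 2.78e-06). The tested ID just after it changed by -1.04 (limma adjusted p = 1.65e-06). Potri.005G172400, at rank 22 by mean level at normal N, fell from 1406, 1275 and 1428 FPKM to 15.2, 34.5 and 12.3 FPKM. Its mean was 66.3-fold lower, with a change of -6.12 ± 0.285 (SE; limma adjusted p = 2.3e-08), and low-N replicate 2 stood above the other low-N libraries. Without that library the mean was 99.7-fold lower. Its tested neighbours on both sides did not pass, with changes of 0.52 and -0.34. The SEs of both named falls likewise pool all 4 groups and do not measure the spread among the low-N libraries alone. Fitted on the 6 wild-type libraries alone, the limma adjusted p was 6.08e-08 for Potri.010G196400 and 2.93e-05 for Potri.005G172400.

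**Figure D2:**
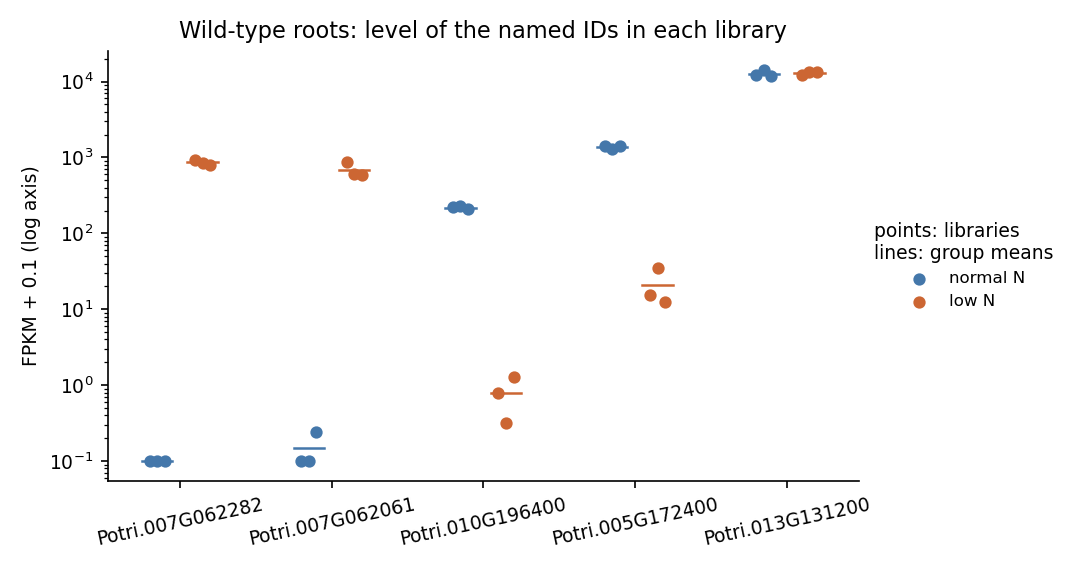
FPKM plus 0.1 (log axis) of the 4 IDs with the largest changes and of the most abundant ID in wild-type roots, with 1 point per library and a line at the group mean. The low-N and normal-N libraries do not overlap for the first 4 IDs, and they overlap for Potri.013G131200.

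Both IDs with the largest rises lay in 1 stretch of closely numbered IDs on chromosome 7. It ran from Potri.007G061520 to Potri.007G062662, between neighbouring IDs whose numbers are multiples of 100, and held 58 IDs. Of these, 11 were listed at 0 in all 6 libraries and 26 were tested. In all, 12 of the 26 rose and none fell, against 10.4% and 6.69% of all tested IDs, and the change was above the median of all tested IDs for 25 of 26. The median change in the stretch was 0.99, and 0.98 over the 24 tested IDs without the named pair. The summed FPKM of the stretch was 295, 376 and 262 in the normal-N libraries and 3050, 2291 and 2288 in the low-N libraries, and it was 8.17-fold higher by the means. Without the named pair the sums were 295, 376 and 262 against 1240, 830 and 903, which was 3.18-fold higher. One further ID of the stretch held 80.1% of the summed FPKM at normal N, at 237, 306 and 205 FPKM, and reached 1050, 639 and 705 FPKM at low N. The stretch was chosen because it holds the named IDs, so these counts are a description. Reads of near-identical IDs cannot be told apart, and the sources used here do not say how the authors' counting treated such reads.

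The form of the ID went with the response more widely. Of the 34699 IDs, 29139 have a number that is a multiple of 100, 5349 have a number in between, and 211 lie on scaffolds outside the numbered chromosomes. Fewer of the in-between IDs were tested (1673, or 31.3%, against 22242, or 76.3%, of the multiples of 100), and they were more weakly expressed, with a median of 3.20 against 9.26 FPKM at normal N. Among those tested, 383 in-between IDs rose (22.9%) and 126 fell (7.53%). Among the multiples of 100, 2109 rose (9.48%) and 1478 fell (6.65%). The median change was 0.36 in the in-between IDs and 0.18 in the multiples of 100.

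The excess of rises among in-between IDs was present at every level of expression. At 5 to 20 FPKM, 108 of 467 in-between IDs rose (23.1%), against 901 of 9716 multiples of 100 (9.27%). At 20 to 100 FPKM the shares were 22.3% of 233 and 8.29% of 5438, and at 100 FPKM or more 21.7% of 60 and 10.1% of 952. Under 2 FPKM they were 21.9% of 438 and 9.84% of 2103. The shares that fell had no single order, at 8.57% of in-between IDs and 5.08% of multiples of 100 for 5 to 20 FPKM, and at 5.48% and 7.80% under 2 FPKM. The difference in the shares that rose kept its direction with median-of-ratios scaling (19.0% and 6.28%) and with quantile normalization (18.7% and 6.81%). It was far smaller without a filter on low values, where 11.3% of in-between IDs and 7.86% of multiples of 100 rose. In that setting, with 31075 IDs tested, 3.61% and 5.45% fell. By the adjusted p alone it was also far smaller, with 49.9% of in-between IDs and 45.7% of multiples of 100 higher. By that measure, 19.5% and 23.7% were lower. The form of an ID was looked at after the values had been seen, and no test of the difference was made. In-between IDs that stood alone between multiples of 100 rose in 25.0% of 821 cases. The share that rose was 19.2% of 615 in stretches of 2 to 4, 20.5% of 112 in stretches of 5 to 9 and 29.6% of 125 in stretches of at least 10. Of the 37 risen IDs in stretches of at least 10, 28 lay in the 3 stretches with the most risen IDs, on chromosomes 7, 8 and 13 (28 of 46 tested). In the other stretches of at least 10, 9 of the 79 tested IDs rose (11.4%). The 3 stretches were picked for their number of rises, which sets the direction of this contrast, so it is a description.

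**Figure D3:**
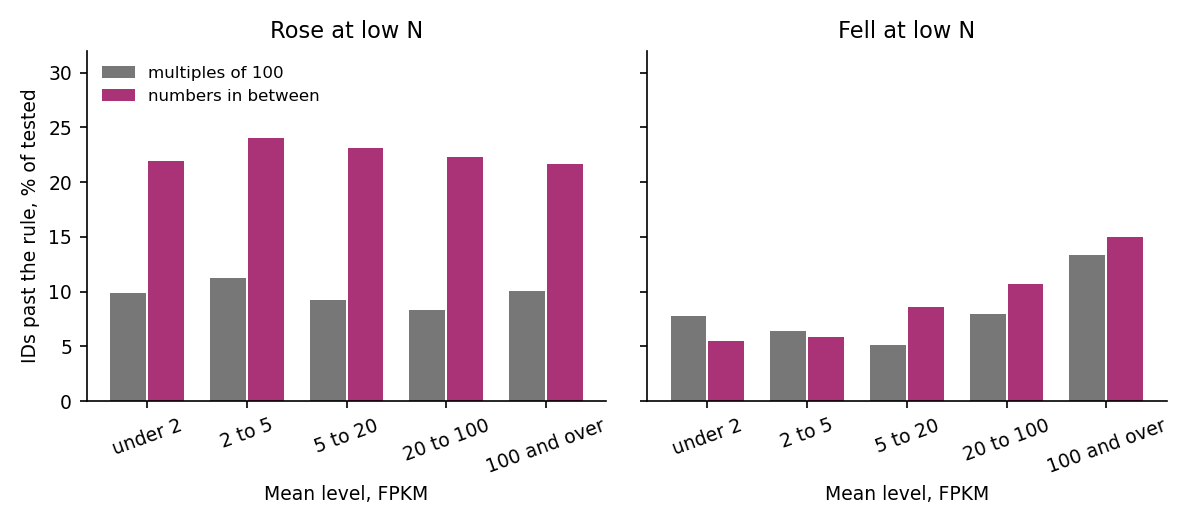
Share of tested IDs that rose (left) and fell (right) at low N in wild-type roots, by mean level in FPKM, for IDs whose number is a multiple of 100 and for IDs with a number in between. In-between IDs rose in 21.7% to 24.0% of cases in each class, and multiples of 100 in 8.29% to 11.3%.

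The in-between IDs were most prominent among the largest rises. Of the 58 IDs that rose by at least 4, 29 were in-between IDs, 28 multiples of 100 and 1 a scaffold ID, and of the 23 that rose by at least 5, 17 were in-between IDs. Of the 40 IDs that fell by at least 4, 3 were in-between IDs. In-between IDs were 6.97% of those tested.

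Some IDs were listed at 0 in every library of one group. Such an ID could be included only through all 3 libraries of the other group, so its change is set by the rule, and the counts are a description. In all, 86 tested IDs were listed at 0 in all 3 normal-N libraries, of which 56 were in-between IDs, and 19 were listed at 0 in all 3 low-N libraries, of which 5 were in-between IDs. The normal-N libraries were the deeper ones. Of the 86, 49 had a mean of at least 5 FPKM at low N and 10 had a mean of at least 50 FPKM. Those listed at 0 at low N reached lower levels, with 5 at a mean of at least 5 FPKM at normal N and the highest at 48.9 FPKM. The 49 IDs varied among the low-N libraries with a median coefficient of variation of 12.7%, against 6.73% for the other 17154 tested IDs with at least 5 FPKM at low N, and took 0.418% to 0.448% of the summed FPKM there. In PuHox52-overexpressing roots, 40 of the 49 were likewise listed at 0 in all 3 normal-N libraries, and the highest value of any of them there was 0.320 FPKM. An exact 0 in a file without counts can also be a failed estimate, so these IDs are given as listed at 0 and not as silent.

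Risen IDs tended to neighbour risen IDs, and fallen IDs fallen ones. In the order of the tested IDs, the next ID after a risen one had risen in 16.4% of 2490 cases and had fallen in 5.38%. The next ID after a fallen one had fallen in 12.7% of 1603 cases and had risen in 7.17%. Over all tested IDs the shares were 10.4% risen and 6.69% fallen. Runs of at least 3 risen neighbours numbered 60 and held 223 IDs (8.89% of the risen), and 31 runs of fallen neighbours held 104 IDs (6.48% of the fallen). Runs of 5 or more numbered 11 for rises and 1 for falls. No test was made, since neighbours can share sequence and therefore reads.

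Long runs of risen IDs lay on chromosomes 8, 19 and 14. They were picked for their length after the values were seen, so their values are a description. On chromosome 8, 11 tested neighbours from Potri.008G223000 to Potri.008G224373 rose, 10 of them in-between IDs. Their summed FPKM was 23.5, 28.9 and 18.2 in the normal-N libraries and 141, 109 and 116 in the low-N libraries, which was 5.18-fold higher by the means. Their median change was 1.93 and the highest 3.11. The table holds 40 IDs over this range, and those not counted here were below the level for testing.

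On chromosome 19, the 11 IDs from Potri.019G116866 to Potri.019G117700 all were tested and rose, by 1.09 to 2.85. Their summed FPKM was 57.5, 72.6 and 55.6 in the normal-N libraries and 232, 470 and 482 in the low-N libraries. Low-N replicate 1 was the lowest low-N library for 10 of the 11 IDs and stood at 0.487 of the mean of the other low-N libraries, so the run moved as a block between replicates as well. The sums were 6.37-fold higher at low N, and 7.69-fold without low-N replicate 1.

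On chromosome 14, the 8 tested neighbours from Potri.014G184900 to Potri.014G187000 rose by 1.01 to 5.80. Their summed FPKM was 10.5, 18.7 and 7.84 in the normal-N libraries and 350, 104 and 163 in the low-N libraries, with low-N replicate 1 at 2.63 times the mean of the others. The sums were 16.7-fold higher, and 10.8-fold without that library. The groups did not overlap in any of the 3 runs.

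The longest run of falls held 5 abundant IDs on chromosome 9, from Potri.009G114300 to Potri.009G114800. Their summed FPKM was 3520, 3815 and 3400 in the normal-N libraries and 1112, 828 and 925 in the low-N libraries, 3.75-fold lower by the means. The most abundant of them went from a mean of 2681 to 570 FPKM. In PuHox52-overexpressing roots the sums were 2118, 2328 and 2410 in the normal-N libraries and 1485, 1842 and 1354 in the low-N libraries. The change differed between the genotypes for 5 of the 5 IDs (interaction in limma, adjusted p under 0.05), as it did for 72.0% of all IDs that fell and 36.2% of all tested IDs.

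**Figure D4:**
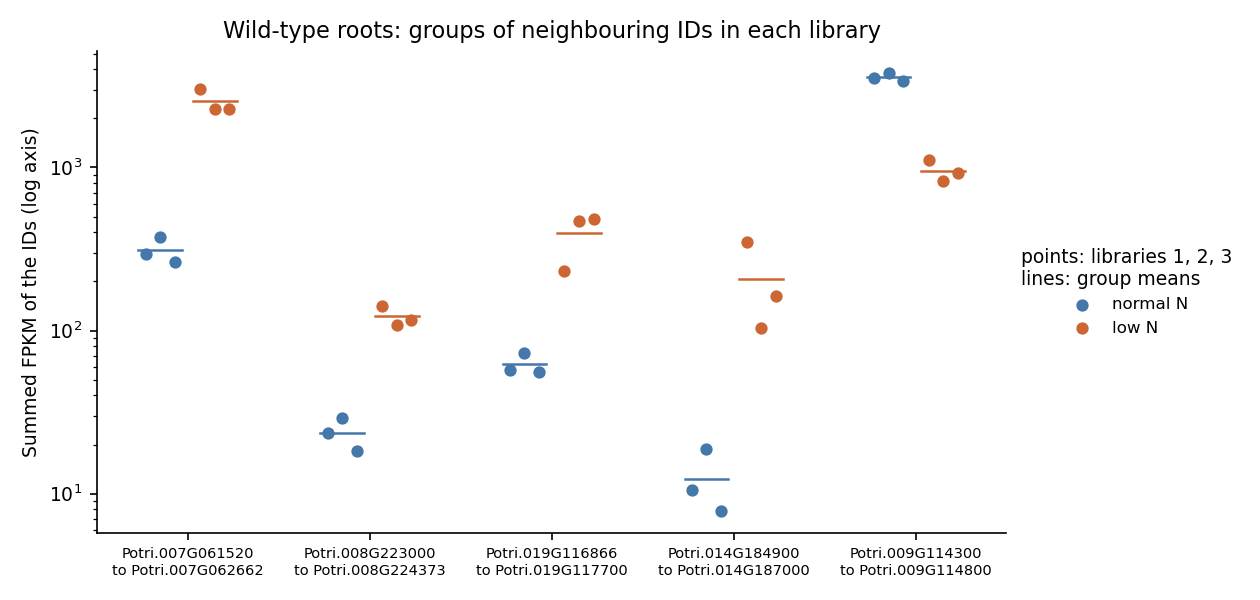
Summed FPKM (log axis) of the chromosome 7 stretch, 3 long runs of risen IDs and the longest run of fallen IDs in wild-type roots, with 1 point per library and a line at the group mean. The low-N and normal-N libraries do not overlap in any group, and the low-N libraries differ most from one another in the chromosome 14 run, at 104 to 350.

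Chromosomes differed little as wholes. The share of tested IDs that rose ran from 7.83% on chromosome 17 to 12.6% on chromosome 14, and the share that fell from 5.42% on chromosomes 3 and 14 to 9.76% on chromosome 17. Chromosome 17 also had the lowest median change, at 0.07, and chromosome 14 the highest, at 0.28. In windows of 50 neighbouring IDs with at least 5 FPKM in both groups (14893 IDs, 289 windows), the median change ran from -0.10 to 0.44, and it was below 0 in 23 windows. The highest window ran from Potri.014G019100 to Potri.014G030500 and the lowest from Potri.004G106500 to Potri.004G123900.

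One run of IDs set a low-N library apart from its replicates. In the 3 windows at the start of the chromosome 13 IDs, low-N replicate 2 differed by -0.61 to -0.43 from the mean of the other low-N libraries on the log2 scale. In the other 286 windows it differed from that mean by -0.06 to 0.08, and each normal-N library stayed within -0.08 to 0.09 of the mean of the other normal-N libraries in every window. Between Potri.013G000100 and Potri.013G032200, 205 IDs were tested, of which 26 rose and 12 fell, against 10.4% and 6.69% of all tested IDs. Without low-N replicate 2, 38 of the 205 rose and 11 fell, and their median change went from 0.23 to 0.42. Over all tested IDs, leaving out that library moved the rises from 2508 to 2612 and the falls from 1606 to 1638. By the adjusted p alone, 78 of the 205 were higher with that library and 125 without it. With all libraries, 46.0% of all tested IDs were higher by that measure. The median SD of the 205 IDs was 0.356 at low N and 0.0928 at normal N.

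**Figure D5:**
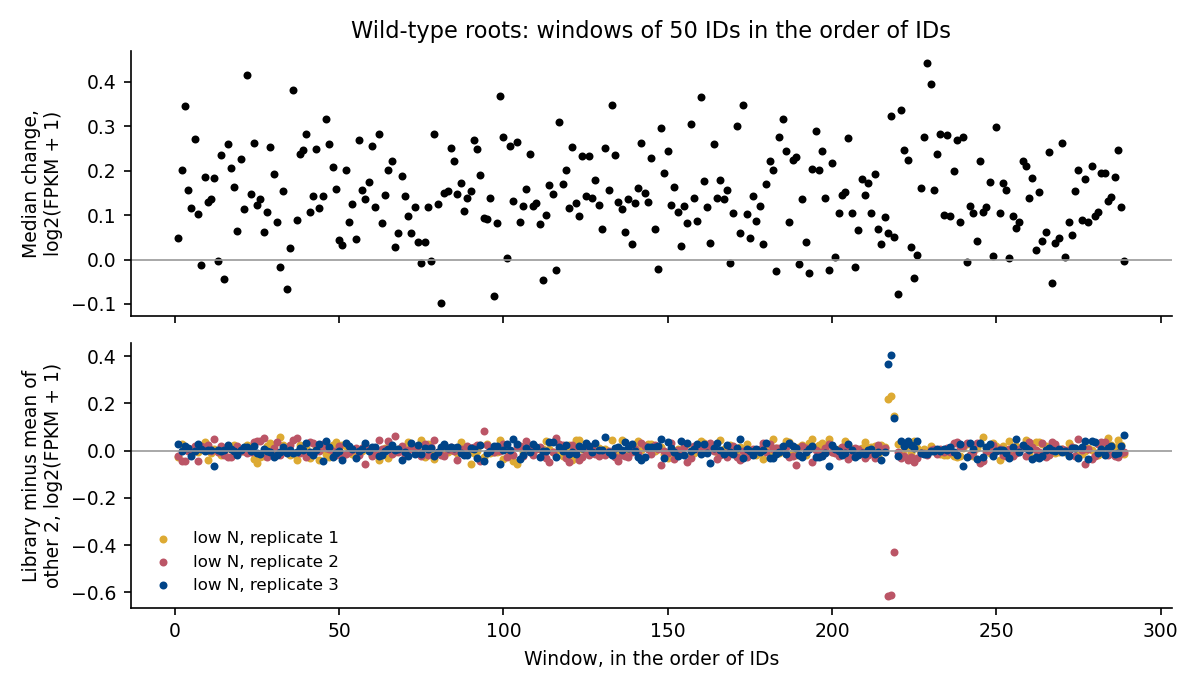
Upper panel, median change at low N on the log2(FPKM + 1) scale in 289 windows of 50 neighbouring IDs, in the order of IDs. Lower panel, median difference of each low-N library from the mean of the other 2 low-N libraries in the same windows, which stays near 0 except in the 3 windows at the start of chromosome 13.

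PuHox52-overexpressing roots were then used to ask which parts of the response differed with genotype. The interaction, the wild-type change minus the change in overexpression roots, had an adjusted p under 0.05 in limma for 8699 of the 24013 IDs (36.2%). It was called for 1156 of the 1606 IDs that fell in wild type (72.0%) and for 1180 of the 2508 that rose (47.0%). The median change of the fallen IDs was -1.54 in wild type against -0.69 with overexpression, and that of the risen IDs was 1.36 against 1.07. In overexpression roots, 589 of the fallen IDs also fell (36.7%) and 1382 of the risen also rose (55.1%), while 53 and 18 passed in the other direction. Of all tested IDs, 4.64% fell and 11.2% rose in overexpression roots, so the background also differed between the directions. These IDs were chosen on their change in wild type, which by itself favours a smaller change in the other genotype. The interaction was a smaller change in overexpression roots for 1072 of the 1156 fallen and 1016 of the 1180 risen IDs, and whether fallen and risen IDs differ in this was not tested.

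The IDs with the largest changes differed in this respect. Potri.007G062282 rose also in overexpression roots, from a listed 0 in all 3 libraries to 979, 1205 and 1140 FPKM, with an interaction of -0.35 ± 0.109 (SE; limma adjusted p = 0.0225). Potri.007G062061 rose there too, from 0, 0 and 0.0736 FPKM to 711, 556 and 634 FPKM, with an interaction of 0.07 ± 0.192 (SE; limma adjusted p = 0.815). The SEs of both interactions likewise take little or no spread from the normal-N groups. Potri.010G196400 went from 201, 205 and 224 to 61.3, 49.9 and 27.3 FPKM in overexpression roots, and its interaction was -4.82 ± 0.379 (SE; limma adjusted p = 5.59e-06). Potri.005G172400 went from 1494, 1498 and 1487 to 365, 426 and 466 FPKM, with an interaction of -4.28 ± 0.403 (SE; limma adjusted p = 2.06e-05). Both fallen IDs thus kept higher low-N levels in each overexpression library than in any wild-type library. In the chromosome 7 stretch, 20 of the 26 tested IDs rose in overexpression roots, against 11.2% of all tested IDs. The interaction was called for 4 of the 26, against 36.2% of all tested IDs. In the runs of risen IDs on chromosomes 8 and 19, it was called for 0 of 11 IDs each. On chromosome 14 it was called for 1 of 8, and among all risen IDs for 47.0%. The summed FPKM in the low-N overexpression libraries was 201, 134 and 194 for the chromosome 8 run and 183, 289 and 634 for the chromosome 19 run. A wide spread among replicates, as on chromosome 19, makes an interaction harder to call. An interaction that was not called therefore does not mean equal changes. Of the in-between IDs, 23.6% rose in overexpression roots, against 10.2% of the multiples of 100. Both genotypes were compared between the same N supplies, so a technical difference that coincided with the N supply would enter both.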

How the data were processed

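RNA-seq values were taken from 1 deposited table of FPKM, which the authors made with 1 column per library and without pooling. TopHat and DESeq2 appear, with neither version nor role, in the submitters' processing notes. Genome build, annotation and FPKM program: not given in the sources used here. RNA was extracted with CTAB, per the labels' protocols. Columns were assigned by the short name in GEO's description, with 0 other columns. log2(FPKM + 1) of IDs reaching 1 FPKM in 3 or more wild-type libraries was fitted in R 4.3.3 with limma 3.58.1 (eBayes, trend, robust), with 1 mean per group over 12 libraries and 8 residual degrees of freedom. No count model was used, since FPKM are not counts. The procedure was run on simulated data with few changed IDs and the same spread in every group. These settings differ from the data described here, so that run does not bear on the counts given. Relative depth was the most frequent ratio of normal-N replicate 1 to a library, over IDs below 0.15 FPKM in all 6 wild-type libraries. Replicates are called biological in the design text, and no 2 libraries were near-identical. With no gene names, the rule named the 2 largest rises and falls, and 34 gene lists by function were not run. The members and lists were chosen with earlier results of these data known. Alternatives were another pseudocount, filters, scalings, fits, a replicate block and leaving out libraries.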

Additional observations from a re-analysis of the deposited data

Results flagged for a closer look

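The change from normal to low N differed between wild-type and overexpression roots, by the interaction test in limma, for 8699 of the 24013 tested IDs (36.2%). Among the IDs with the largest changes, the interaction (wild-type change minus overexpression change, log2 scale) was -0.353 for Potri.007G062282, -4.82 for Potri.010G196400 and -4.28 for Potri.005G172400. It was 0.07 for Potri.007G062061 and was not called there (limma adjusted p = 0.815). For Potri.007G062282, the normal-N groups were listed at 0 and add no spread to the SE behind this call.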

How the results depend on the processing

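The changes of the 4 named IDs kept their direction and passed in 68 of 68 recalculations over 17 alternatives. These IDs were picked as the largest passing changes of the same data, so that outcome was largely set by the choice. Some alternatives, such as the adjusted p alone, also left the fit of these IDs as it was. The minimum change mattered most for the counts: by the adjusted p alone, 11040 IDs were higher and 5613 lower, with 49.9% and 19.5% of in-between IDs and 45.7% and 23.7% of multiples of 100 higher and lower. Without a filter, 11.3% of in-between IDs rose and 3.61% fell, against 7.86% and 5.45% of multiples of 100. After median-of-ratios scaling, 6.28% of multiples of 100 rose. A pseudocount of 0.1 gave 3508 rises and 2066 falls, and 21 instead of 12 rises in the chromosome 7 stretch. A filter at 5 FPKM left 2, 7 and 4 IDs of the runs on chromosomes 8, 19 and 14, which passed. Leaving out each wild-type library gave 2491 to 2612 rises and 1600 to 1662 falls. Replicate numbers did not pair the libraries, with correlations of deviations of -0.00373, -0.0394 and -0.0167 between equal numbers and 0 of 3 matching best. With a replicate block, 2507 IDs rose and 1605 fell. The called interactions numbered 7240 to 9662 over 15 alternatives, which did not all test the same number of IDs. The lowest count came with the filter at 5 FPKM (of 17647 tested IDs) and the highest with library weights (of 24013). Without a filter it was 9115 of 31075. Counts under the functional gene lists could not be made. Depth, lower at low N and unknown in absolute terms, limits weakly expressed IDs most.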
